A study of Mus musculus with 4 samples.

Results

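Genes of the interferon system, of antigen presentation and of innate sensing were compared between naive mouse embryonic stem cells (nESC) and epiblast-like stem cells (EpiLSC), the cell state that resembles the epiblast shortly after implantation. The members were every gene of the deposited table whose symbol matched a fixed set of name patterns: the H2- genes of the major histocompatibility complex (MHC), the Ifit, Ifitm, Oas, Irf, Gbp, Tlr and Ifi families, Psmb8 to Psmb10, Tap1 and Tap2, together with B2m, Isg15, Nlrc5, Ciita, Ddx58, Ifih1, Mavs, Tmem173, Mb21d1 and the 4 interferon receptor genes. This gave 102 members among the 20296 genes of the table. Mb21d1 was found under its newer symbol Cgas, and 42 further symbols of the patterns that the annotation names are not analysed here. The pattern for Irf also caught 3 Irf2bp genes, which encode partners of an interferon regulatory factor and not such factors themselves.

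The nESC came from the lines R1 and E14TG2a (E14) and were held in the naive state by 2i/LIF, that is, a pair of kinase inhibitors with the cytokine LIF. The EpiLSC came from the same lines after 3 days on gelatin in N2B27 medium with activin A at 20 ng/ml and bFGF at 12 ng/ml. Each state had 2 libraries, 1 per line, of strand-specific total RNA depleted of ribosomal RNA. Medium and state changed together and cannot be told apart. The spread within a state includes the difference between the lines, and no line was sampled more than 1 time per state, so the p-values do not measure the variation between repeat cultures. The values came from 1 comparison table, so levels of single libraries, their SDs and their read depth were not analysed here.

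MHC class I molecules carry peptides from the cytosol to the cell surface. They consist of a heavy chain, encoded by many H2- genes, and the light chain B2m. Their peptides are cut by the proteasome, in part by the inducible subunits Psmb8, Psmb9 and Psmb10, and pumped into the endoplasmic reticulum by Tap1 and Tap2, while Nlrc5 switches the class I genes on. Interferons act through the receptors Ifnar1 and Ifnar2 or Ifngr1 and Ifngr2 on STAT and IRF factors, which bind short promoter elements of the induced genes. Pluripotent cells are known for little class I on their surface and for a weak response to interferon.

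The promoter stretches below are shown because they carry the elements through which class I and interferon-induced genes are known to be switched on. They are from RefSeq on GRCm38.p6, whose table held 300-base windows (250 bases before the start and 50 after it) for 85 of the 102 members. The first set holds the stretch before the start of 3 class I heavy chain genes. Capitals mark the core GGGATTCCC of the element called enhancer A and the core TTTCACTTC of the class I interferon consensus. The stretches are at chr17:34000414-34000492 on the minus strand for H2-K1, at chr17:35262889-35262967 on the plus strand for H2-D1 and at chr17:35424643-35424721 on the plus strand for H2-Q6.
H2-K1: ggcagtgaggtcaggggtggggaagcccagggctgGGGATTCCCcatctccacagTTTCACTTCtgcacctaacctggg
H2-D1: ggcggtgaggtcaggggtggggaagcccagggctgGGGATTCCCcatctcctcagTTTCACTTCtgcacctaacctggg
H2-Q6: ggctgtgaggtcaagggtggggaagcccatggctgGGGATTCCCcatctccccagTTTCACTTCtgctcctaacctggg

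Over these 79 bases H2-K1 and H2-D1 differed at 2 positions, and H2-Q6 differed from each of them at 5. The enhancer A core, searched on both strands, stood in 112 of the 27025 genes with a window (0.414%) and in 5 members, H2-K1, H2-D1, H2-Q6, H2-Q7 and Irf1. The core of the class I interferon consensus was added to the search after these sequences had been read, and it stood in 161 of the 27025 genes (0.596%). Of the members it was found in 9, of which 7 were the class I heavy chain genes H2-K1, H2-D1, H2-Q4, H2-Q6, H2-Q7, H2-Q10 and H2-M3. The other 2 were Irf2 and Ifitm6. Of these 9 members 4 rose, 0 fell, 4 were tested and not called and 1 had no adjusted p. Of all tested genes 7.67% rose and 6.23% fell.

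The second set shows a more general element, the interferon-stimulated response element (ISRE), searched as GAAANNGAA on both strands and marked in capitals. The stretches are at chr2:122147513-122147591 (plus strand) for B2m, chr3:142620570-142620648 (plus strand) for Gbp2, chr5:120907526-120907580 (minus strand) for Oas1a and chr5:120887614-120887666 (minus strand) for Oas1g. In the Oas1a and Oas1g stretches the capitals cover 2 matches that overlap.
B2m: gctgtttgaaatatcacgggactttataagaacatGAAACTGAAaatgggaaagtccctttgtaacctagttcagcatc
Gbp2: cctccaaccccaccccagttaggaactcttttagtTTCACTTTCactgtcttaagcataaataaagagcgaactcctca
Oas1a: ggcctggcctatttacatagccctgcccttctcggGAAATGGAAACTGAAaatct
Oas1g: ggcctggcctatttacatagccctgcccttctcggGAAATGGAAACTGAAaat

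The ISRE letters stood in 27 of the 85 members with a window (31.8%) and in 2638 of the 27025 genes (9.76%). They were found in 3 of 13 members that rose (Gbp2, Gbp2b and Gbp7), in 4 of 9 that fell (Ddx58, Ifitm3, Oas1a and Oas1g) and in 11 of 36 that were tested and not called. The GAS element, searched as TTCNNNGAA, stood in 19 of the 85 members (22.4%) and in 9.55% of all genes with a window, also on either side of the comparison, in 3 of 13 members that rose and 3 of 9 that fell. These matches describe the letters in the windows and do not show binding.

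Of the 102 members, 71 had an adjusted p per the authors' deposited table and were counted as tested. The other 31 had means up to 3.55 normalized counts per the authors' deposited table. At an adjusted p under 0.05 (DESeq2 Wald test, Benjamini-Hochberg over 16361 genes), 15 members rose in EpiLSC, beside 7.67% of all tested genes, and 12 fell, beside 6.23% (13.9% either way). These were 21.1% and 16.9% of the tested members. Their median log2 fold change was 0.24, beside 0.02 over all tested genes, so the set as a whole had no single direction. Since a member enters the test through its mean, one that is present in a single state is more likely to be both tested and called, and these shares are a description. No called member had a log2 fold change below 2.00 in size, and the median standard error of the tested members was 1.02, against 0.79 over all tested genes, so a member that was not called is not shown to be unchanged. For 7 of the 44 tested members without a call, the 95% interval lay within a 4-fold change either way.

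**Figure D1:**
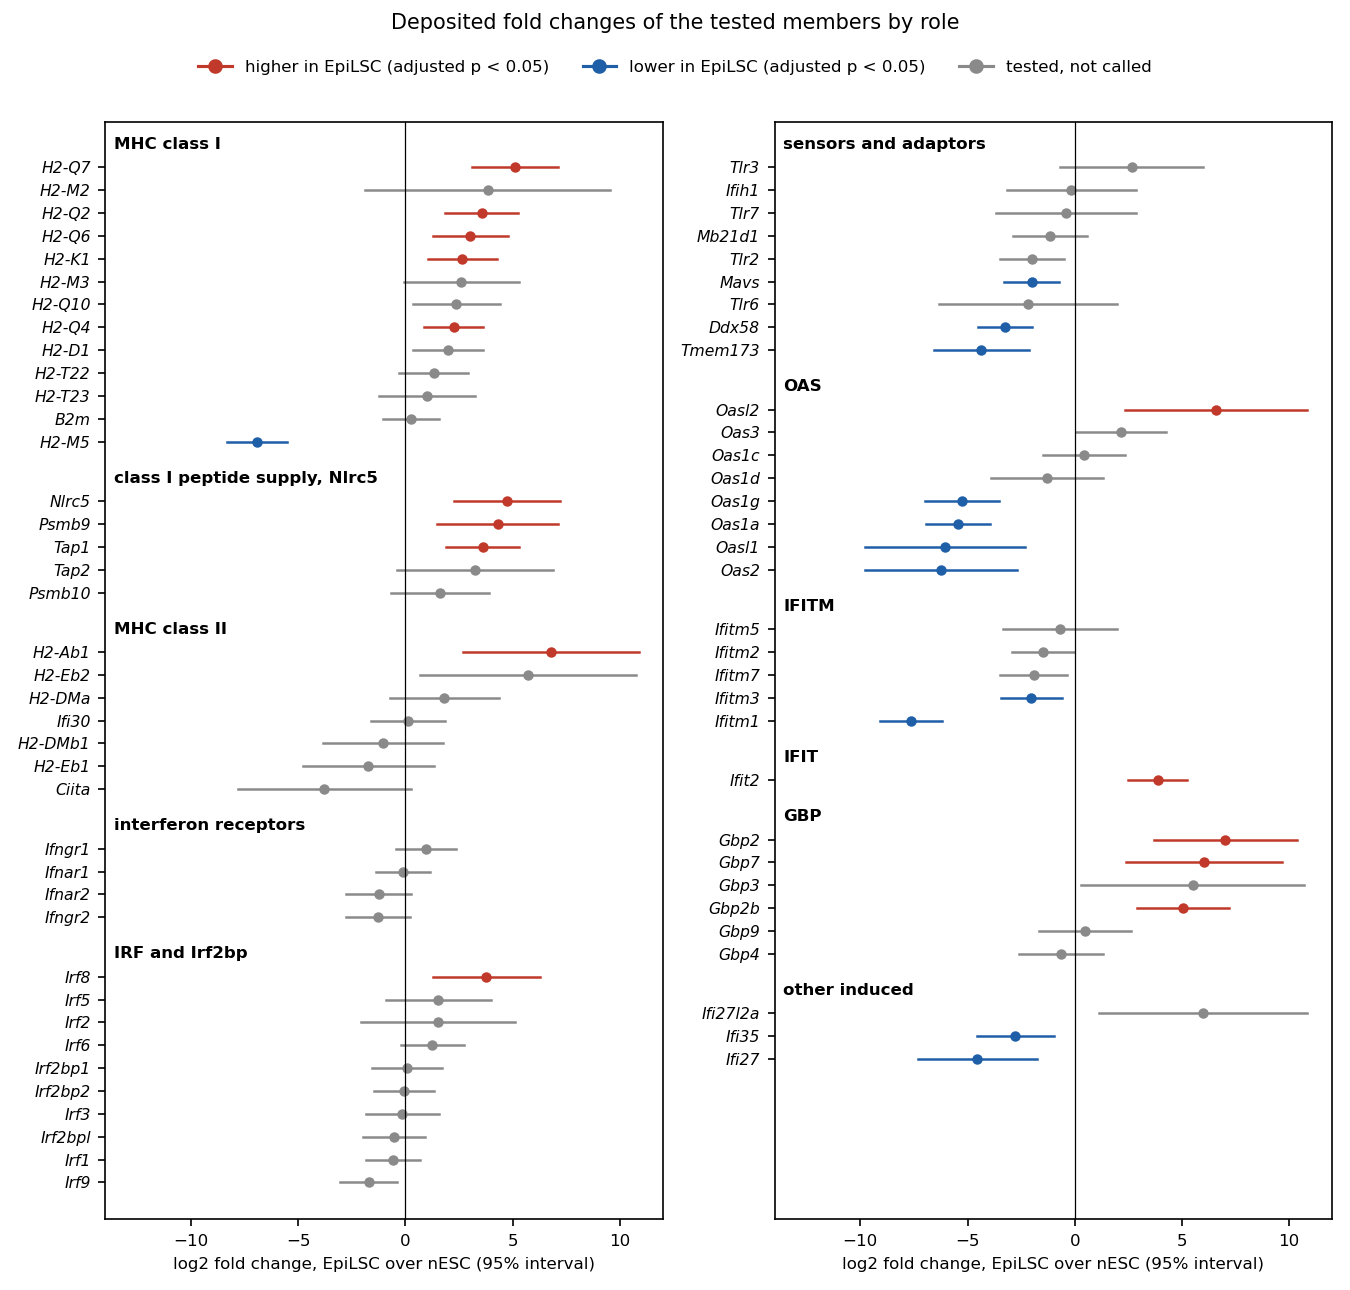
Log2 fold change of EpiLSC over nESC with its 95% interval (horizontal axis) for each of the 71 tested members, ordered by role; red points rose, blue points fell and grey points did not pass. Class I genes lie to the right of 0 except H2-M5, while the sensors and adaptors that passed and the Ifitm genes lie to the left.

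Markers gave the direction of the comparison, and genes used as markers of other cell types were listed with their levels. How far these genes reflect other cell types here was not tested. The naive markers Zfp42, Klf4 and Esrrb summed to 25959 normalized counts in nESC and 238 in EpiLSC, and the formative markers Fgf5, Otx2 and Dnmt3b to 1961 and 49889. The signs of these genes set the direction of the comparison, which the header does not state. They are therefore no separate check of the labels. Of the pluripotent markers, Sox2 fell by 3.35 (SE 0.64) and Pou5f1 (-0.19, SE 0.76) did not pass, per the authors' deposited table. Of 10 leukocyte markers 7 were in the table, 6 of them were tested and 0 rose, and they summed to 1180.2 in nESC and 181.5 in EpiLSC, of which Laptm5 alone had 905 in nESC and fell by 7.76 (SE 1.01) per the authors' deposited table. Adgre1, Csf1r and Tyrobp are not analysed here. The 8 fibroblast markers summed to 84.9 in nESC and 254 in EpiLSC, and Dcn (6.76, SE 1.76) and Thy1 (4.60, SE 0.97) rose per the authors' deposited table, while Col1a1 (1.55), Col1a2 (2.69) and Pdgfra (-2.38) did not pass there. The other 3 had no adjusted p. Of 5 endothelial markers the 3 in the table, Pecam1, Kdr and Tek, fell. They summed to 3422 in nESC and 124 in EpiLSC, of which Pecam1 alone had 3048 in nESC. Of the markers in the table that define leukocytes most broadly, Ptprc had a value of 2.43 (SE 1.65) and did not pass per the authors' deposited table. The part of other cell types in the values of the class I, class II, Gbp and Irf8 genes was not tested.

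The heavy chain genes of MHC class I did not share a direction, and per kilobase of exon the gene with the highest level differed between the states. H2-M5, a nonclassical heavy chain gene (ENSMUSG00000024459.17), had a level of 2139.9 normalized counts in nESC and 17.7 in EpiLSC, and H2-K1, a classical one (ENSMUSG00000061232.14), had 114 in nESC and 717 in EpiLSC. Levels for each state were derived from the deposited mean and fold change, and no SD can be given for them. Whether those fold changes were shrunk toward 0 is not stated in the sources used here, and shrinkage would alter the derived levels, folds and shares. H2-M5 fell by 6.91 on the log2 scale (SE 0.71, adjusted p 2.17e-19), which is 121-fold, and H2-K1 rose by 2.66 (SE 0.82, adjusted p 0.0112), which is 6.31-fold, per the authors' deposited table. As these are bulk libraries, fewer cells that express a gene and less RNA per cell cannot be told apart.

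Of the 17 heavy chain genes 12 were tested. Of these 5 rose and 1 fell, beside 7.67% and 6.23% of all tested genes, and 6 were not called. The heavy chain genes that rose were H2-K1 and 4 of the Q region, which lies beside the classical gene H2-D1. H2-Q7 went from 3.99 to 137 normalized counts, a change of 5.10 on the log2 scale (SE 1.02, adjusted p 1.47e-05) per the authors' deposited table. H2-Q2 went from 11.4 to 135, H2-Q6 from 18.6 to 152 and H2-Q4 from 60.9 to 290.4. Their log2 fold changes were 3.57 (SE 0.87), 3.03 (SE 0.89) and 2.25 (SE 0.70) per the authors' deposited table. H2-D1, the other classical gene, had 75.6 in nESC and 298 in EpiLSC and did not pass (log2 fold change 1.98, SE 0.84, adjusted p 0.108 per the authors' deposited table), although its 95% interval, 0.33 to 3.63, overlapped that of H2-K1, 1.06 to 4.26. H2-Q10 had a value of 2.38 (SE 1.04) and did not pass per the authors' deposited table. Its window held the core of the class I interferon consensus and not that of enhancer A. The nonclassical genes H2-T23, a ligand of natural killer cell receptors, and H2-M3, which presents formylated peptides, had values of 1.00 (SE 1.14) and 2.61 (SE 1.37) and did not pass per the authors' deposited table. The H2-M5 interval, -8.31 to -5.52, overlapped none of the intervals of the other 11 tested heavy chain genes.

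Near-identical copies limit how far single Q genes can be told apart. Of the 50-base windows in the GENCODE M21 transcripts of H2-Q6, 32.0% also stood in transcripts of other genes, as did 26.4% for H2-Q7, 21.8% for H2-Q4, 16.1% for H2-Q2 and 9.63% for H2-K1, but 0.886% for H2-M5. Summed over the K, D and Q regions, 8 genes in all, the level was 296 in nESC and 1785 in EpiLSC. When tested against a fold of 2 in place of no change, H2-K1, H2-Q4 and H2-Q6 lost their calls, while H2-Q2, H2-Q7 and H2-M5 passed.

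Per kilobase of exon, all 17 heavy chain genes together had 929.8 normalized counts in nESC and 729 in EpiLSC. H2-M5 made up 85.5% of this sum in nESC and 0.905% in EpiLSC. H2-K1 made up 4.16% in nESC and 33.5% in EpiLSC, followed there by H2-D1 with 15.9% and H2-Q4 with 15.3%. The light chain gene B2m had 441 normalized counts in nESC and 519 in EpiLSC, a change of 0.24 on the log2 scale (SE 0.67) that did not pass per the authors' deposited table. Its 95% interval, -1.07 to 1.54, lay within a 4-fold change either way.

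**Figure D2:**
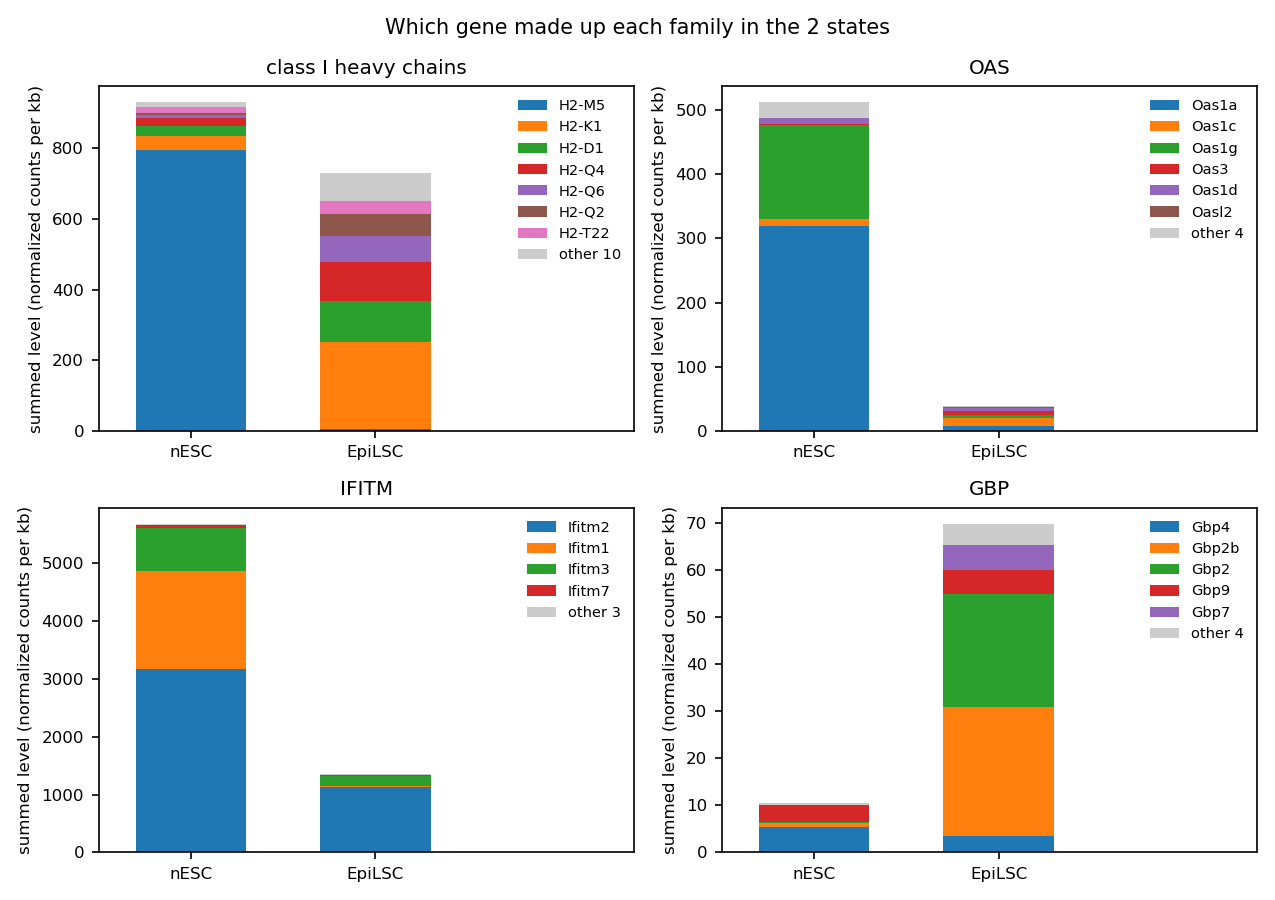
Summed level per kilobase of exon (vertical axis, normalized counts per kb, scale differs between panels) of 4 families in nESC and EpiLSC, with each coloured segment 1 gene and grey the remaining genes; levels are computed from the authors' mean and fold change and carry no error bar. H2-M5 fills most of the class I bar in nESC and H2-K1 is the largest segment in EpiLSC, the OAS and IFITM bars are shorter in EpiLSC, and the GBP bar is taller.

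Of the genes that supply class I with peptides, counted together with the class I switch Nlrc5, 5 were tested. Each had a value above 0, and 3 of the 5 rose, beside 7.67% of all tested genes. Tap1, a subunit of the peptide pump, went from 12.7 to 155 normalized counts, a change of 3.61 on the log2 scale (SE 0.87, adjusted p 0.00053) per the authors' deposited table. Psmb9, an inducible proteasome subunit, went from 1.78 to 35.2 (log2 fold change 4.30, SE 1.44, adjusted p 0.0237), and the class I switch Nlrc5 from 1.98 to 52.7 (log2 fold change 4.73, SE 1.27, adjusted p 0.00247), per the authors' deposited table. In the last 2 genes the nESC level was under 3 normalized counts, so the size of the change rests on few reads. Tap2 (3.23, SE 1.85) and Psmb10 (1.62, SE 1.17) did not pass per the authors' deposited table, and Psmb8, with a mean of 2.69, had no adjusted p there. Psmb9 lost its call when tested against a fold of 2, and Tap1 and Nlrc5 kept theirs.

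Tap1 and Psmb9 are neighbours that are read in opposite directions from a shared stretch of DNA. Their RefSeq starts leave 225 bases between them, printed here in the direction of Tap1 because the genes on both sides rose (chr17:34187331-34187555 on GRCm38.p6, plus strand).
Tap1 and Psmb9: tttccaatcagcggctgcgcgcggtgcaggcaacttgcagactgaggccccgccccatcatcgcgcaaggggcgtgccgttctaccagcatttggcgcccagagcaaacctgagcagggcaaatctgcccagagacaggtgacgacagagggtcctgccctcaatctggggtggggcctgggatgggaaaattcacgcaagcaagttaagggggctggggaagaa

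The letters searched for the ISRE, GAS, enhancer A and class I consensus were in neither of the RefSeq windows of Tap1 and Psmb9. In GENCODE M21 the 2 genes also overlap on opposite strands, and the strand setting of the authors' counting is not given in the sources used here, so reads in the overlap cannot be assigned to 1 of them. Psmb8 and Tap2, which follow next to them on the chromosome, had values above 0 without a call.

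Of 20 further genes for peptide loading, proteasome subunits and regulators, and the control of MHC genes, 19 were tested. Of these 0 rose and 0 fell, beside 7.67% and 6.23% of all tested genes (DESeq2 Wald test; 1 had a p under 0.05 before adjustment; median log2 fold change -0.02, beside 0.02 over all tested genes). Tapbp, which holds empty class I molecules at the peptide pump, had a value of -1.21 (SE 0.69) and its relative Tapbpl 0.65 (SE 0.86), neither of which passed per the authors' deposited table. The constitutive proteasome subunits Psmb5, Psmb6 and Psmb7, which the inducible ones replace, had values of 0.07 (SE 0.74), -0.17 (SE 0.77) and 0.19 (SE 0.72) per the authors' deposited table.

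MHC class II genes, which present peptides from outside the cell and are normally active in immune cells, had low levels. Of 7 tested genes 1 rose, beside 7.67% of all tested genes. H2-Ab1 rose by 6.79 (SE 2.09, adjusted p 0.0119) per the authors' deposited table, from 0.172 to 19.0 normalized counts. This rests on few reads, and the call was lost in the test against a fold of 2. The other 6 tested genes of the 10 in this group, among them the class II switch Ciita (-3.78, SE 2.05), did not pass per the authors' deposited table. H2-Eb1 had 15.0 in nESC and 4.51 in EpiLSC. Ifi30, a lysosomal thiol reductase, had 387 in nESC and 426 in EpiLSC.

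The interferon receptor genes were present in each state and none passed. Ifnar1 had 1474 normalized counts in nESC and 1349 in EpiLSC, and its log2 fold change of -0.13 (SE 0.64) per the authors' deposited table had a 95% interval of -1.38 to 1.13. Ifnar2 (-1.25, SE 0.77), Ifngr1 (0.95, SE 0.71) and Ifngr2 (-1.27, SE 0.76) did not pass per the authors' deposited table, and of the 4 genes 0 had a p under 0.05 before adjustment (DESeq2 Wald test). Of 16 further genes of interferon signalling 13 were tested. Among them 0 rose and 0 fell, beside 7.67% and 6.23% of all tested genes. With only 13 genes, counts of 0 cannot be told apart from those shares. Before adjustment 3 had a p under 0.05 (DESeq2 Wald test), and the list had a median of -0.88, beside 0.02 over all tested genes. The receptor kinase genes Jak1 (-0.17, SE 0.61) and Tyk2 (-1.38, SE 0.81) did not pass per the authors' deposited table. The interferon genes Ifnb1 and Ifng are not analysed here.

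Among the IRF factors, which control interferon and interferon-induced genes, 1 of 7 tested genes passed, beside 13.9% of all tested genes either way. Irf8, best known from myeloid cells, rose from 3.13 to 42.9 normalized counts (log2 fold change 3.78, SE 1.27, adjusted p 0.0251 per the authors' deposited table) and lost its call against a fold of 2. Of the 6 tested leukocyte markers 0 rose and 1 fell, beside 7.67% and 6.23% of all tested genes, and Ptprc had a value of 2.43 (SE 1.65) without a call per the authors' deposited table. Their part in the Irf8 value was not tested. Irf9, a DNA-binding factor of the interferon response, had 549 in nESC and 168 in EpiLSC and did not pass (-1.71, SE 0.68, adjusted p 0.0761 per the authors' deposited table). Irf1 (-0.58, SE 0.65), Irf2 (1.52, SE 1.83) and Irf3 (-0.14, SE 0.87) did not pass per the authors' deposited table. Irf7, an amplifier of the interferon response, had a mean of 0.879 and no adjusted p per the authors' deposited table. The 3 Irf2bp genes had values between -0.56 and 0.08 and no call.

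Of the 9 tested members that are sensors or their adaptors, Toll-like receptors included, 3 fell and 0 rose, beside 6.23% and 7.67% of all tested genes. Those that fell were the RNA sensor gene Ddx58 and the adaptor genes Mavs and Tmem173. Ddx58, which encodes the RNA sensor RIG-I, went from 1311 to 136 normalized counts and fell by 3.27 on the log2 scale (SE 0.64, adjusted p 9.83e-06) per the authors' deposited table. Mavs, the mitochondrial adaptor through which RIG-I signals, went from 717 to 179 and fell by 2.00 (SE 0.66, adjusted p 0.0209) per the authors' deposited table. Tmem173, which encodes STING, the adaptor of cytosolic DNA sensing, went from 67.1 to 3.28 and fell by 4.36 (SE 1.13, adjusted p 0.00162) per the authors' deposited table. Ifih1, which encodes the second RNA sensor of this kind, MDA5, had 9.59 in nESC and 8.59 in EpiLSC, a change of -0.16 on the log2 scale (SE 1.54) that did not pass per the authors' deposited table. Mb21d1, which encodes the DNA sensor cGAS upstream of STING, had 53.6 and 24.2 and did not pass (-1.15, SE 0.88 per the authors' deposited table). The Mavs call was lost against a fold of 2, and those of Ddx58 and Tmem173 were kept.

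Toll-like receptors, which sense microbial products at the surface or in endosomes, were low. Tlr2 had 184 in nESC and 46.4 in EpiLSC and did not pass (-1.98, SE 0.76, adjusted p 0.0601 per the authors' deposited table). The other 7 in the table had means of at most 8.78, among them the double-stranded RNA receptor Tlr3 (2.66, SE 1.70) and the single-stranded RNA receptor Tlr7 (-0.41, SE 1.66), and none passed per the authors' deposited table. Tlr4 is not analysed here. The 4 Ifi200 genes, a family of DNA-binding proteins, had means of at most 1.36 per the authors' deposited table and no adjusted p.

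Downstream of the sensors, 7 of 29 tested genes for adaptors, kinases and further sensors fell and 0 rose, against 6.23% and 7.67% of all tested genes (median -0.50). Zc3hav1, which encodes the antiviral RNA-binding protein ZAP, fell by 3.96 (SE 0.62) from 4191 to 269 normalized counts per the authors' deposited table and the levels computed from it. Irak4, a kinase of Toll-like receptor signalling, fell by 4.80 (SE 0.90), its relative Irak2 fell by 2.69 (SE 0.83) and the peptidoglycan sensor gene Nod1 fell by 3.82 (SE 1.04), per the authors' deposited table. Ikbke, a kinase that activates IRF factors, fell by 2.87 (SE 0.93), the DNA sensor gene Aim2 by 2.02 (SE 0.70) and the NF-kB inhibitor gene Nfkbia by 1.79 (SE 0.64, adjusted p 0.0405), per the authors' deposited table. The Toll-like receptor adaptor genes Myd88 (-0.50, SE 0.80) and Ticam1 (-0.60, SE 1.15) did not pass per the authors' deposited table. Against a fold of 2 only Zc3hav1 and Irak4 of the 7 kept their calls, and with no filter on the mean Nfkbia lost its call (adjusted p 0.0503, range 0.0399 to 1 over its alternatives).

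**Figure D3:**
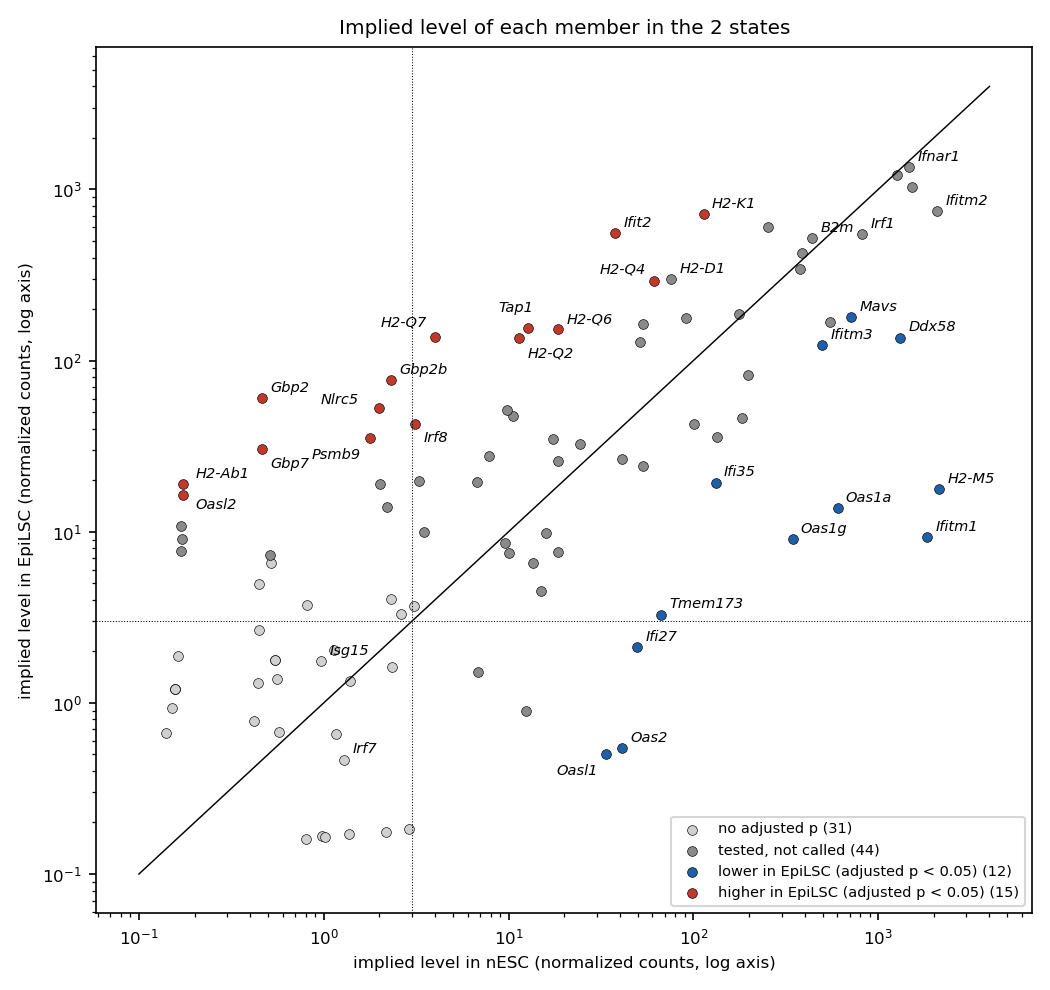
Implied level of each of the 102 members in nESC (horizontal axis) and EpiLSC (vertical axis), in normalized counts on log axes; the solid line marks equal levels, the dotted lines mark 3 normalized counts, and colours give the call. H2-M5 and Ifitm1 stand far below the line at its right end, and 7 of the 15 red points lie left of the dotted line, where the nESC level rests on few reads.

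The OAS genes, some of whose products make the messenger that activates the RNA-degrading enzyme RNase L, had 8 tested members. Of these 4 fell and 1 rose, beside 6.23% and 7.67% of all tested genes. Oas1a went from 603 to 13.7 normalized counts and Oas1g from 344 to 9.03. Their log2 fold changes were -5.46 (SE 0.76, adjusted p 6.83e-11) and -5.25 (SE 0.88, adjusted p 1.25e-07) per the authors' deposited table. The pair share 57.6% of the 50-base windows of Oas1a, so their values may not be separate, and their printed promoter stretches carry the same overlapping ISRE letters. Oas2 fell by 6.25 (SE 1.81) and Oasl1 by 6.07 (SE 1.90) per the authors' deposited table, with EpiLSC levels of 0.544 and 0.501 that rest on few reads.

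Oasl2, the gene next to Oasl1 on chromosome 5, rose by 6.58 (SE 2.17, adjusted p 0.0216) per the authors' deposited table, from 0.173 to 16.5 normalized counts. The nESC level of Oasl2 rests on few reads. The 95% intervals of Oasl2, 2.32 to 10.83, and of Oasl1, -9.80 to -2.34, lie on opposite sides of 0, which their calls already imply. Oas3 (2.17, SE 1.07), Oas1c (0.43, SE 0.98) and Oas1d (-1.29, SE 1.33) did not pass per the authors' deposited table. Per kilobase, the family's sum was 512 in nESC, 62.5% of it Oas1a, and 38.3 in EpiLSC, where Oas1c held 35.4%. The calls of Oas2, Oasl1 and Oasl2 were lost against a fold of 2, and those of Oas1a and Oas1g were kept.

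The IFITM genes encode small membrane proteins that block the entry of viruses, and Ifitm1 and Ifitm3 are also known as markers of early germ cells. Each of the 5 tested genes had a value below 0 and 2 of them fell, beside 6.23% of all tested genes. Ifitm1 (ENSMUSG00000025491.13) went from 1846 to 9.26 normalized counts and fell by 7.64 on the log2 scale (SE 0.74, adjusted p 6.76e-22) per the authors' deposited table, with the smallest p of all members. It ranked 79 by size among the 1019 genes that fell. Ifitm3 went from 497 to 123 and fell by 2.02 (SE 0.72, adjusted p 0.0391) per the authors' deposited table. Ifitm2, with the highest level per kilobase of the family in both states, had 2082 in nESC and 745 in EpiLSC and did not pass (-1.48, SE 0.74, adjusted p 0.219 per the authors' deposited table).

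The 95% interval of Ifitm1, -9.09 to -6.19, overlapped neither that of Ifitm2, -2.94 to -0.02, nor that of Ifitm3, -3.43 to -0.61, although the 3 genes lie next to each other on chromosome 7. Per kilobase the family summed to 5678 in nESC and 1356 in EpiLSC, and the share of Ifitm1 was 29.7% in nESC and 0.624% in EpiLSC. Ifitm2 held 56.0% in nESC and 83.9% in EpiLSC. Ifitm7 (-1.91, SE 0.80) and Ifitm5 (-0.70, SE 1.36) did not pass per the authors' deposited table. The call of Ifitm3 was lost against a fold of 2, and that of Ifitm1 was kept.

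**Figure D4:**
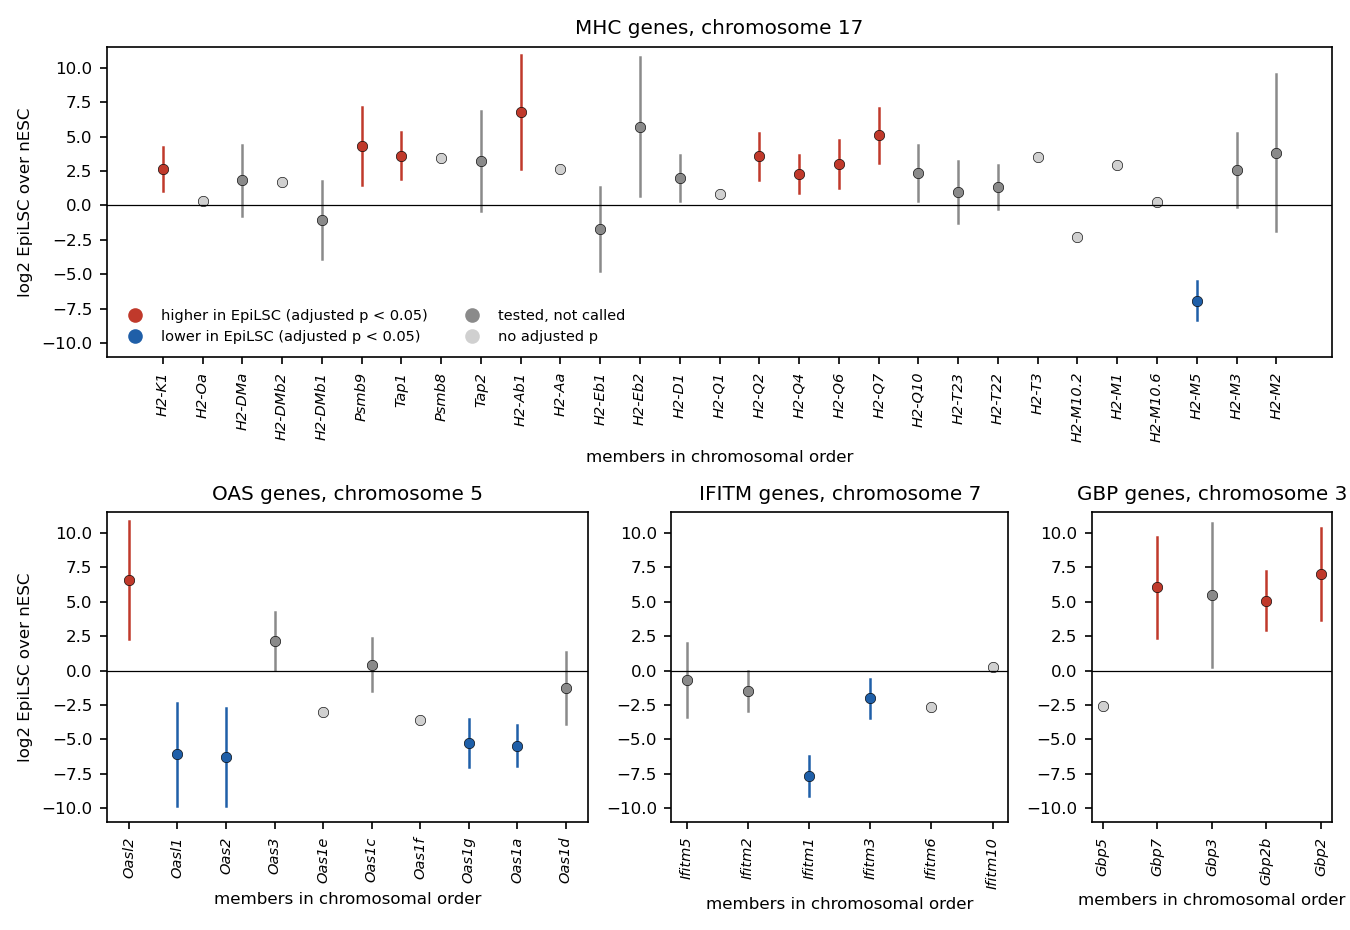
Log2 fold change of EpiLSC over nESC (vertical axis) of members in their order along 4 chromosomes (GENCODE M21), with 95% intervals for tested members and pale points for those without an adjusted p. Members near each other differ in direction or in size. Oasl2 is above 0 and Oasl1 below it, and H2-M5 is below 0 near the end of the MHC. Ifitm1, Ifitm2 and Ifitm3 are all below 0, with Ifitm1 the lowest.

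The guanylate-binding protein genes, which are induced by interferon gamma and attack microbes inside cells, lie in groups on chromosomes 3 and 5. On chromosome 3, 3 of 4 tested genes rose, and on chromosome 5, 0 of 2, beside 7.67% of all tested genes. Gbp2b went from 2.32 to 77.1 normalized counts, Gbp2 from 0.463 to 60.6 and Gbp7 from 0.462 to 30.4. Their log2 fold changes were 5.05 (SE 1.09), 7.03 (SE 1.70) and 6.04 (SE 1.86) per the authors' deposited table, and in each the nESC level was under 3. Gbp3, which lies between Gbp7 and Gbp2b, had a value of 5.50 (SE 2.66) without a call per the authors' deposited table. Gbp4 (41.2 in nESC and 26.7 in EpiLSC) and Gbp9 (18.5 and 25.8), from the chromosome 5 group, did not pass and made up 52.2% and 33.9% of the family's level per kilobase in nESC. In EpiLSC Gbp2b held 39.1% and Gbp2 34.5%. No test of the difference between the chromosomes was made. The call of Gbp7 was lost against a fold of 2.

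The remaining interferon-induced members did not share a direction. Ifit2, whose product binds cellular and viral RNA, went from 37.9 to 556 normalized counts and rose by 3.87 (SE 0.71, adjusted p 1.54e-06) per the authors' deposited table. Its relatives Ifit1 and Ifit3 had means of 1.56 and 2.28 and Isg15, the ubiquitin-like tag often used to read an interferon response, a mean of 1.36, with no adjusted p per the authors' deposited table. Ifi35 fell by 2.77 (SE 0.91) and Ifi27 by 4.55 (SE 1.42) per the authors' deposited table. Their levels went from 132 to 19.3 and from 49.7 to 2.12, and both calls were lost against a fold of 2.

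Of 29 further interferon-induced genes that the patterns did not catch, 25 were tested, of which 2 rose and 2 fell (median 0.80). These are 8% each way, near the 7.67% and 6.23% of all tested genes. Bst2, which tethers budding viruses to the cell, rose by 2.63 (SE 0.74) and the chemokine gene Cxcl10 by 6.74 (SE 2.37), per the authors' deposited table. Cxcl10 had 0.171 in nESC and so rests on few reads. By the authors' deposited table Xaf1, which promotes cell death, fell by 4.95 (SE 0.78) and Sp100, a component of nuclear bodies, fell by 4.61 (SE 1.05). The antiviral genes Mx1 (-3.88, SE 1.64) and Rsad2 (2.29, SE 1.36) did not pass per the authors' deposited table, and Mx2 is not analysed here. Bst2 and Cxcl10 lost their calls against a fold of 2.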

How the data were processed

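RNA sequencing of 4 mouse libraries (2 nESC, 2 EpiLSC, from the lines R1 and E14) was used as 1 comparison table of 20296 genes. TopHat2, HTSeq and DESeq2 1.8.2, with the build mm9, are listed per the submitters' processing notes. For the gene annotation and the strand setting, nothing is given in the sources used here. The deposited mean is a signal: counts divided by size factors and averaged over the libraries by the authors. The deposited log2 fold changes, their standard errors, the Wald score and the p-values, raw and adjusted, come from the authors' DESeq2 model, per the file headers. Recomputing the Benjamini-Hochberg adjustment over the 16361 genes with an adjusted p gave the deposited values (largest gap 2.3e-15). The other 3935 genes, with means up to 3.74, have none. Total reads per library are unknown, so precision is that of the standard errors.

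New tests of single genes were run only as alternatives, from the deposited fold change and its standard error. They were made against a fold of 2, and against no change after the fold changes were recentred on the median of abundant genes. With mean m and log2 fold change L, the level was 2m/(1 + 2^L) in nESC and the rest of 2m in EpiLSC, with the 4 libraries assumed to weigh the same. A level under 3 was called one that rests on few reads. The 95% intervals use the normal quantile. Names, exon lengths, gene order and 50-base windows came from GENCODE M21 (20167 genes named), promoters from RefSeq. The motif letters were shortened to 9 after longer forms had been searched and seen. The recomputed adjustments were tested on simulated data. Python 3.11.15, pandas 2.3.3 and scipy 1.17.1 were used. Named were all members that passed, 36 members whatever their values, and of the 4 pathway lists the genes that passed and the first 2 of each, with at most 6 each way per list; Nfkbia, Rsad2, Psmb5 to Psmb7 and the other genes named, such as H2-Q10, were chosen after their values were seen. The closing section leaves some of the genes beside members unnamed. Members, lists and roles were chosen with earlier results of these data known.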

Additional observations from a re-analysis of the deposited data

How the results depend on the processing

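The members that rose and fell (15 and 12) and the pathway genes that rose and fell (2 and 9) were counted again under each alternative. With no filter on the mean, and with fold changes recentred on the median of abundant genes (0.004), the same 27 members were called. Against a fold of 2 the counts were 7 and 6 members, and 0 and 4 pathway genes, beside 3.84% and 3.07% of all tested genes, and 13 of the 27 members remained. At an adjusted p under 0.01 they were 8 and 7, and 1 and 5, beside 5.37% and 4.41% of all tested genes. Among genes with a mean of at least 100, 3 members rose and 7 fell, and 1 pathway gene rose, beside 5.94% and 5.74% of all such genes, because 17 of the 27 called members have lower means and were not tested. Counting only members with a level of at least 3 in both states, an alternative chosen after seeing the data, left 8 that rose and 9 that fell. The share of all genes under this setting was not computed, so these counts cannot be set against a general rate. At an adjusted p under 0.1, Irf9 (0.0761) and Tlr2 (0.0601) were also called among the named genes. No paired analysis was possible because the table has no values per sample; leaving out a library, a block for the cell line and an edgeR fit were not run for the same reason.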

Other observations

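The protein-coding genes next to the called members were read off in the order of GENCODE M21, up to 2 on each side and without other members. Beside members that rose, 15 such neighbours were tested, of which 0 rose and 1 fell (Kyat3 beside Gbp2 and Gbp2b, -2.43, SE 0.68 per the authors' deposited table). Beside members that fell, 24 were tested, of which 4 fell and 0 rose (over all tested genes, 6.23% fell and 7.67% rose). H2-M5 stood between 2 of these 4: 2410137M14Rik (-8.76, SE 1.04) and Zfp57 (-3.41, SE 0.65), a zinc finger gene that protects methylation at imprinted loci, per the authors' deposited table. Another was 1700066B19Rik near Tmem173. Pou5f1, which lies 2 coding genes from H2-Q7, had a value of -0.19 (SE 0.76) and did not pass per the authors' deposited table. These neighbours were looked at after the values of the members were known.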
